A study of Homo sapiens with 24 samples.

Results

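The 10 genes described here are the BCL2 family members BMF, BCL2L11, BBC3, PMAIP1, BAX, BAK1, MCL1, BCL2L1 and BCL2 together with MOAP1, a partner of BAX. They are a list of gene symbols, chosen with earlier results of these data known, 10 of the 23106 symbols counted, and all 10 passed the filter on low counts that left 11735 genes for testing. RNA came from RCC4+VHL cells, a renal carcinoma line that lacks functional VHL and in which VHL was restored by stable transfection and cloning, so that every group carries the transgene and none is VHL-defective. Cells were kept in normoxia or hypoxia, each with DMSO or ITE, which gave 4 groups of 6 libraries. ITE, an agonist of the aryl hydrocarbon receptor AHR, was given at 100 nM and its vehicle DMSO at 0.1%, both for 6 h, and hypoxia was 0.5% oxygen for 6 h against 21% in normoxia. All cells had been kept in charcoal-stripped serum without phenol red before treatment. The study's methods call the 6 replicates of a group independent without saying in what way, and the labels only number them, so p-values measure the spread between these libraries.

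BCL2 family proteins decide whether the outer mitochondrial membrane is opened during apoptosis. BH3-only proteins sense stress and bind the other members, BAX and BAK1 form the pores that release cytochrome c, and MCL1, BCL2L1 and BCL2 hold both of the other classes in check. HIF and AHR, the transcription factors switched on by hypoxia and by ITE, share the partner HIF-1β/ARNT, and the study asked how the 2 pathways act on each other's target genes. The study named MOAP1 among the common targets of HIF and AHR. It required binding by both in ChIP-seq, and higher RNA under each stimulus in these same libraries. The values of MOAP1 here are therefore not independent evidence of the rise in RNA, and the binding was not examined here.

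Both treatments were visible in the libraries. CYP1B1, the classical AHR target, was higher with ITE by 2.51 in normoxia and 2.35 in hypoxia on the log2 scale, and NDRG1, a HIF target, was higher in hypoxia by 3.25 with DMSO and 2.96 with ITE, all past the adjusted threshold of 0.05 in edgeR. Of the other checks listed, DDIT4 in hypoxia (3.53 with DMSO, 3.14 with ITE) and TIPARP for ITE in normoxia (1.35) also passed. TIPARP did not pass for ITE in hypoxia (0.67, adjusted p = 0.494, edgeR), and CA9, listed for hypoxia, had no reads in any hypoxic library. Renal markers fitted the label, with 7 of 8 passing the filter and a summed level of 3249 to 6535 CPM (each count over its library's total after TMM scaling) in every library. The 4 leukocyte, 3 endothelial and 1 hepatocyte markers summed to at most 0.743, 3.31 and 0.222 CPM, and the 3 fibroblast markers to between 0 and 31.9 CPM. The highest fibroblast and endothelial sums were both in normoxia + DMSO replicate 4, with the next libraries at 3.33 and 0.826 CPM. Without that library BMF gave 0.85 for ITE in normoxia and -1.68 for hypoxia with DMSO on the log2 scale, and MOAP1 0.37 and 0.51, and none of the 10 genes passed in either comparison. Depth ran from 770094 counts in hypoxia + DMSO replicate 2 to 93851342, with a median of 7981993. A single gene's 3 counts therefore corresponded to between 0.0294 and 4.12 CPM, limits that cover counting error only. Hypoxia + ITE replicate 6 stood apart, with a median absolute deviation from its group mean of 0.629 on the log2 scale over all genes tested, against 0.0919 to 0.361 in the other libraries. For BMF, PMAIP1, BAX, BAK1 and MOAP1, differences in which that library weighs most are given with and without it. In these bulk samples, fewer cells of a kind and less RNA per cell cannot be told apart.

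The stretches before the transcription starts are shown for BMF and BAX, which had the widest differences among BH3-only genes and effectors, and for BNIP3, a pathway gene that rose in hypoxia. Each is 250 bases, 5′ to 3′ on the strand of the gene, from RefSeq on GRCh38.p14. Capitals mark GCGTG, the core that AHR binds with ARNT, and ACGTG, the core that HIF binds with ARNT, read on either strand, so that CACGC and CACGT are the same cores on the other strand and CACGTG is counted on both. GCGTG stood in 31.9% of 27303 such windows and ACGTG in 18.7%.
BMF, chr15:40108880-40109129, minus strand: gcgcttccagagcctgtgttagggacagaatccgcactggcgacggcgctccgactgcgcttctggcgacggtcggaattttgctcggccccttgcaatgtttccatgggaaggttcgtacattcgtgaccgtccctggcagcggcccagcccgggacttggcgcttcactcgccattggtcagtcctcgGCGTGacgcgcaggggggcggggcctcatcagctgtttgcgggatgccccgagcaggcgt
BAX, chr19:48954625-48954874, plus strand: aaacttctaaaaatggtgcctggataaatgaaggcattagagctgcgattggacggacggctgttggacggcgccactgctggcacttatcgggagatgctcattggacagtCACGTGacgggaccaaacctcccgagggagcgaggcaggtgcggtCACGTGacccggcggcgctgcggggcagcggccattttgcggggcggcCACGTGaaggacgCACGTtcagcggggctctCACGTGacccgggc
BNIP3, chr10:131981924-131982173, minus strand: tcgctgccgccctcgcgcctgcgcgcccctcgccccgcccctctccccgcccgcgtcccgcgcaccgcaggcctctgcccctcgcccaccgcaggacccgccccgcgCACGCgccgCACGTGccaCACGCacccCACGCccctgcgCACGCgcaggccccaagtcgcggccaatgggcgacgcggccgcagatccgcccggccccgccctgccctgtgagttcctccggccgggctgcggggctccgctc

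The BMF window held 1 GCGTG and no ACGTG. The BAX window held 5 separate stretches in capitals, 4 of them the palindrome CACGTG, which stood in 6.49% of all windows. The BNIP3 window held 4 GCGTG and 1 CACGTG. Promoter sequence was found for 9 of the 10 genes, MCL1 being without an entry, and 3 of the 9 held GCGTG (BMF, BCL2L11 and PMAIP1), 2 held ACGTG (BBC3 and BAX) and 4 held neither (BAK1, MOAP1, BCL2L1 and BCL2). These matches describe the letters in the windows and were not tested for binding.

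MOAP1 starts close to a gene on the opposite strand, TMEM251, with 27 bases between the annotated genes on GRCh37. In RefSeq on GRCh38.p14 the start of the neighbour on that side, listed as LYSET, lies further off, with 419 bases between both starts. The 30 bases before the RefSeq start of MOAP1 are shown, at chr14:93184898-93184927 on the minus strand of GRCh38.p14, with capitals marking TGACGTCA, the palindrome bound by CREB and ATF factors. That motif was chosen after the sequence was seen, and 1.77% of the windows of 250 bases held it.
MOAP1: cctcaTGACGTCAgatcgcccccgcccgcc

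The genes lay over a wide range of levels, and the pro-survival BCL2L1 was the most abundant. In normoxia + DMSO, per kilobase of the union of exons, BCL2L1 stood at 118.7 ± 8.81 CPM per kb (SD, n = 6). BAX followed at 54.1 ± 4.70 and MCL1 at 38.4 ± 3.81 CPM per kb. PMAIP1 (21.2 ± 7.11) and BAK1 (21.2 ± 2.47 CPM per kb) could not be separated from each other, and the same held for MOAP1 (9.52 ± 1.07) and BBC3 (9.13 ± 1.08 CPM per kb). BCL2 stood at 3.30 ± 0.747, BCL2L11 at 2.40 ± 0.417 and BMF, the lowest, at 0.504 ± 0.239 CPM per kb. BCL2L1, BAX and MCL1 kept the first 3 ranks and BCL2, BCL2L11 and BMF the last 3 in all 4 groups. The order also depends on which transcripts the cells used. With the longest coding transcript in place of the exon union BAX stood at 103 and BCL2L1 at 155 CPM per kb. BBC3 then stood at 15.7 and MOAP1 at 9.52 CPM per kb, so that this pair was alike only over the exon union.

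**Figure D1:**
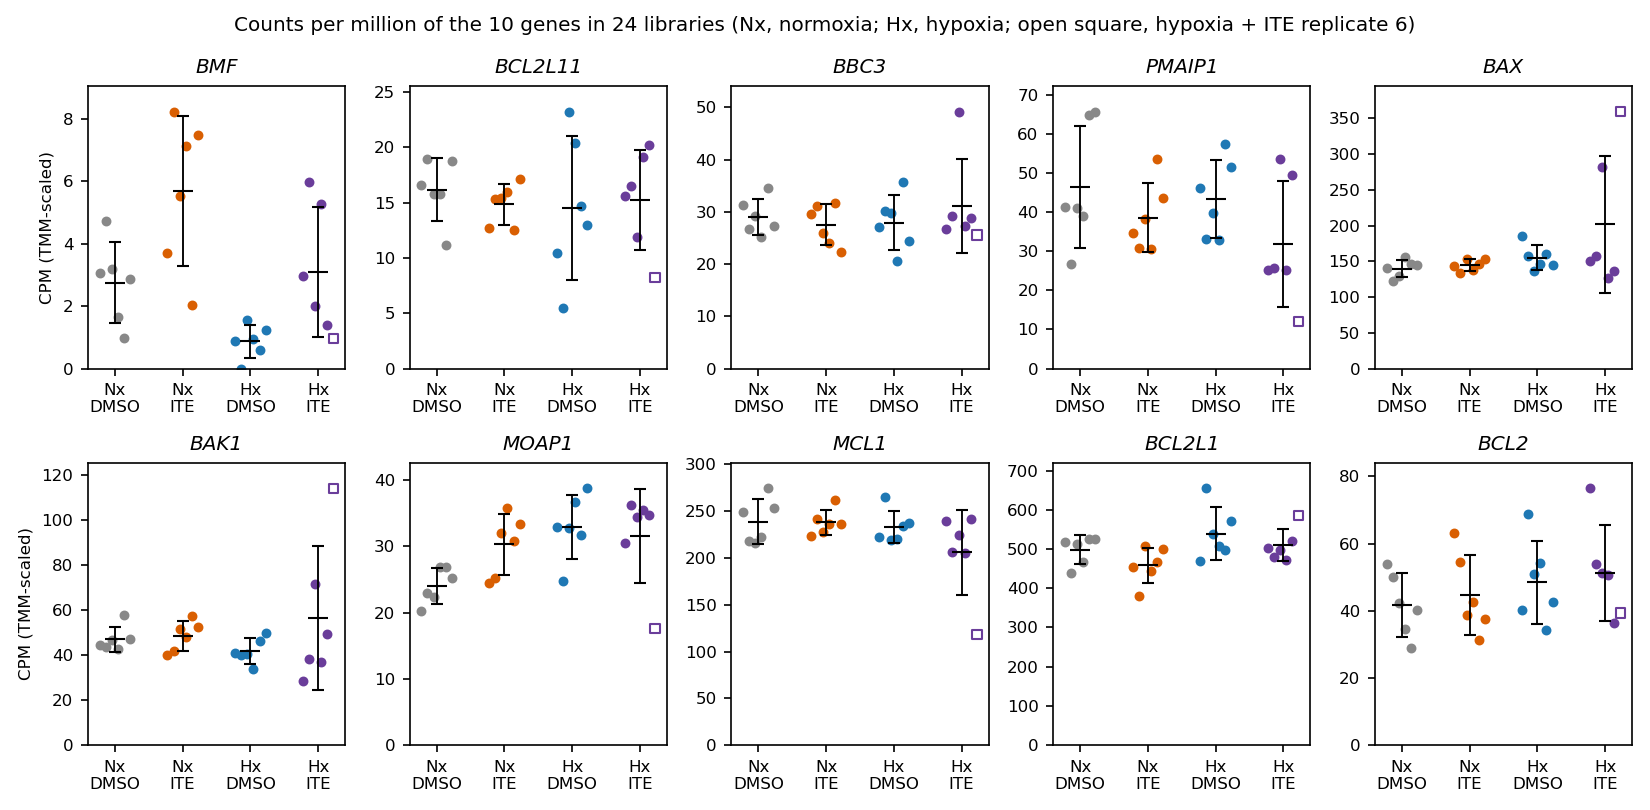
Level of each of the 10 genes (vertical axis, TMM-scaled CPM from 0) in the 24 libraries by group (horizontal axis: normoxia, Nx, or hypoxia, Hx, with DMSO or ITE); points are libraries, the black bar and whiskers are the mean and SD of 6, and the open square is hypoxia + ITE replicate 6. BMF lies between 0 and 1.55 CPM under hypoxia with DMSO and reaches 8.22 CPM under normoxia with ITE. Within its group the open square is the lowest point for BMF, BCL2L11, BBC3, PMAIP1, MOAP1 and MCL1. It is the highest for BAX, BAK1 and BCL2L1.

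None of the 10 genes passed an adjusted p-value of 0.05 in edgeR's quasi-likelihood test in any of 6 comparisons. For ITE in normoxia 0 of 10 were called, against 0.0511% of all genes tested, and for ITE in hypoxia 0 of 10 against 0.0597%. For hypoxia with DMSO 0 of 10 were called against 1.3%, for hypoxia with ITE 0 of 10 against 2.35%, and for both stimuli against neither 0 of 10 against 2.32%. For the interaction, which asks whether the response to ITE differed between hypoxia and normoxia, 0 of 10 were called and 0% of all genes. With so few genes called in the whole table, 0 of 10 lies close to the background in each comparison. The biological coefficient of variation, the spread between libraries beyond counting error, was 12.7% in normoxia, 29.1% in hypoxia and 22% over all libraries. The test of ITE in normoxia therefore carries the wider spread of the hypoxic libraries. With the normoxic libraries alone, edgeR called 0.261% of all genes for ITE in normoxia, and no member. At an unadjusted p-value under 0.05 the counts among the 10 were 2 for ITE in normoxia (1.46% of all genes tested), 2 for hypoxia with DMSO (9.47%), 1 for hypoxia with ITE (20.1%), 2 for ITE in hypoxia (9.56%), 2 for both stimuli (19.3%) and 0 for the interaction (3.19%). They belonged to BMF, MOAP1 and BAX. DESeq2 called MOAP1 for hypoxia with DMSO, where it called 2.12% of all genes, and for both stimuli against neither, where it called 5.51%, and called no member in the other 4 comparisons. In no comparison were the 6 libraries of one group all above or all below the 6 of the other for any of the 10 genes, which was the case for 0.69% of genes for ITE in normoxia, 2.74% for hypoxia with DMSO, 2.13% for hypoxia with ITE, 0.281% for ITE in hypoxia and 2.06% for both stimuli. The comparisons share control libraries, so that their values are not independent of each other.

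**Figure D2:**
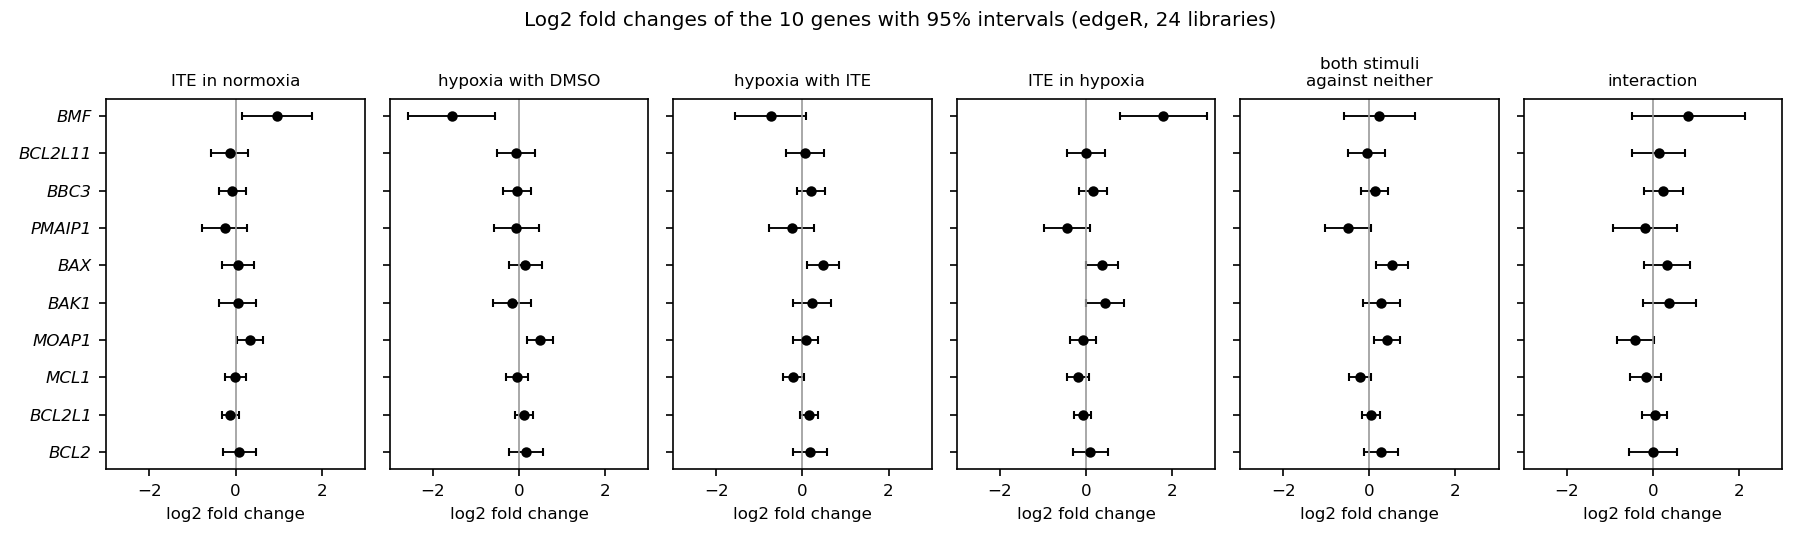
Log2 fold changes (horizontal axis) of the 10 genes (vertical axis) in the 6 comparisons, from edgeR on all 24 libraries; points are estimates and whiskers 95% confidence intervals. BMF has the widest intervals, with -1.56 for hypoxia with DMSO and 1.80 for ITE in hypoxia, and no gene passed the adjusted threshold.

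BMF, a BH3-only protein held on the cytoskeleton by dynein light chains until it is released, had the widest differences of the 10. The study counts BMF among AHR target genes. By RT-qPCR in RCC4+VHL cells it reported that ITE raised BMF and that hypoxia weakened this rise. It also showed AHR and HIF-1β/ARNT signal at the BMF locus in ChIP-seq. The gene (ENSG00000104081) lies at chr15:40380091-40401093 on the minus strand of GRCh37. In normoxia + DMSO its lowest, median and highest levels were 0.990, 2.95 and 4.72 CPM, and with ITE added 2.04, 6.31 and 8.22 CPM. Under hypoxia they were 0, 0.920 and 1.55 CPM with DMSO, and 0.966, 2.48 and 5.96 CPM with ITE. The groups compared overlapped in every comparison, and replicate 5 was the lowest and replicate 2 the highest library in both normoxic groups. Counts were small, with 0 to 23 reads per library in hypoxia + DMSO and 4 to 474 in hypoxia + ITE. The library with no BMF read, hypoxia + DMSO replicate 2, was the shallowest, where 3 counts correspond to 4.12 CPM, so that a level within the normoxic range could have gone undetected there.

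The log2 fold change of BMF for ITE in normoxia was 0.97 ± 0.40 (SE), or 1.96-fold, with an adjusted p-value of 0.9998 in edgeR. Its level was higher than in the same-numbered DMSO library at 6 of 6 replicate numbers, which the labels do not tie to a shared culture or day. For hypoxia with DMSO the value was -1.56 ± 0.49, a 2.96-fold lower level, with an adjusted p-value of 0.164, and hypoxic libraries were lower at 6 of 6 numbers. For ITE in hypoxia it was 1.80 ± 0.50, or 3.47-fold, with an adjusted p-value of 0.494 and a higher level at 5 of 6 numbers. The value for hypoxia with ITE was -0.74 ± 0.40 (adjusted p = 0.309, edgeR), and lower at 6 of 6 numbers. With both stimuli against neither it was 0.23, with a 95% interval of -0.59 to 1.05, so that the combined treatment could not be separated from the control. The interaction value, the response to ITE in hypoxia less that in normoxia, was 0.83, with an interval of -0.48 to 2.13 and an adjusted p-value of 0.915 in edgeR. Without hypoxia + ITE replicate 6 the value for ITE in hypoxia was 1.96 (adjusted p = 0.395, edgeR). The sign of the BMF differences for ITE in either oxygen level and for hypoxia with DMSO was the same under all 35 alternatives in each, but the size was not. Under ITE in normoxia it lay between 0.43, with sample quality weights, and 1.21, and passed under 1 alternative. That fit had replicate number as a term and only the compared groups, with 2.22% of all genes called. For hypoxia with DMSO it lay between -1.81 and -0.97 and for ITE in hypoxia between 1.28 and 2.09, and passed under none. The genes on both sides of BMF are far from it, SRP14 at 48708 bases and BUB1B at 52130 bases. Their values for ITE in normoxia were 0.09 and 0.15. For hypoxia SRP14 gave 0.22 with DMSO and 0.39 with ITE. BUB1B was lower in hypoxia, by -0.35 with DMSO (adjusted p = 0.416, edgeR) and -0.51 with ITE (adjusted p = 0.0579, edgeR).

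The other 3 BH3-only genes overlapped widely between groups and passed no test. BCL2L11, which encodes BIM (chr2:111876955-111926021, plus strand), had medians of 16.2 CPM with DMSO and 15.4 CPM with ITE under normoxia, and of 13.8 and 16.1 CPM under hypoxia, within a range of 5.50 to 23.2 CPM. Its log2 fold changes lay between -0.13 and 0.07 in the 5 comparisons of groups. BBC3, which encodes the p53 target PUMA (chr19:47724079-47736023, minus strand), had medians of 28.2, 27.9, 28.4 and 28.1 CPM in that order of groups. Its highest library was hypoxia + ITE replicate 3 at 49.2 CPM, where the other 5 of that group lay between 25.6 and 29.2 CPM. PMAIP1, which encodes NOXA and binds MCL1 (chr18:57567228-57571537, plus strand), ranged from 26.7 to 65.6 CPM in normoxia + DMSO and from 12.1 to 53.5 CPM in hypoxia + ITE. Its values for ITE were -0.25 in normoxia and -0.44 in hypoxia, and with both stimuli -0.50 ± 0.26 (adjusted p = 0.282, edgeR), with 12.1 CPM in hypoxia + ITE replicate 6. Without that library the value with both stimuli was -0.33.

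The pore-forming genes had their highest means in hypoxia + ITE, where replicates 3 and 6 lay above the other libraries of that group, and no difference passed the test. BAX averaged 202 ± 95.7 CPM there and 170 ± 63.3 CPM without replicate 6, against 140 ± 12.1 CPM under normoxia with DMSO (SD, n = 6, and 5 libraries without replicate 6). The gene (chr19:49458072-49465055, plus strand) had a lowest, median and highest level of 123, 143 and 156 CPM under normoxia with DMSO. With ITE under normoxia they were 134, 145 and 154 CPM, and with DMSO under hypoxia 137, 152 and 185 CPM, so that these 3 groups lay close together. In hypoxia + ITE the median was 154 CPM, with 4 libraries between 126 and 157 CPM, replicate 3 at 281 CPM and replicate 6 at 359 CPM. The log2 fold change was 0.48 ± 0.18 for hypoxia with ITE (adjusted p = 0.142), 0.38 ± 0.18 for ITE in hypoxia (adjusted p = 0.516) and 0.53 ± 0.18 for both stimuli (adjusted p = 0.112) in edgeR. Without replicate 6 the 3 values were 0.23, 0.14 and 0.28, with adjusted p-values of 0.459, 0.9997 and 0.322. Leaving out replicate 4 of hypoxia + ITE instead gave 0.59 for hypoxia with ITE, which passed (adjusted p = 0.0466, edgeR, with 6.21% of all genes called), and 0.63 for both stimuli (adjusted p = 0.0349, edgeR, 5.1%). Leaving out replicate 5 gave 0.62 for both stimuli (adjusted p = 0.0395, edgeR, 6.27%). With sample quality weights in limma the first 2 changed sign, at -0.02 and -0.03. For ITE in normoxia the value was 0.05, with an interval of -0.32 to 0.42. BAK1 (chr6:33540324-33548070, minus strand) had medians of 45.4, 49.8, 40.5 and 43.8 CPM in the 4 groups in the order above. It reached 71.6 CPM in replicate 3 and 114 CPM in replicate 6 of hypoxia + ITE. Its value for ITE in hypoxia was 0.43 ± 0.22 (adjusted p = 0.530, edgeR) and 0.13 without replicate 6. BAK1 overlaps GGNBP1 on the opposite strand, and the strand setting of the counting is not given in the sources used here.

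MOAP1, which binds BAX downstream of RASSF1 and death receptors, had its lowest mean in normoxia + DMSO, at 24.1 ± 2.71 CPM (SD, n = 6), and means between 30.3 and 32.9 CPM in the 3 treated groups. The gene (ENSG00000165943) lies at chr14:93648544-93651268 on the minus strand of GRCh37. In normoxia + DMSO its lowest, median and highest levels were 20.2, 24.1 and 26.9 CPM. With ITE under normoxia they were 24.4, 31.4 and 35.8 CPM. Under hypoxia they were 24.7, 32.8 and 38.8 CPM with DMSO and 17.6, 34.6 and 36.2 CPM with ITE. Each treated group overlapped the control at its lower end, through replicate 2 in hypoxia + DMSO, the shallowest library with 18 MOAP1 reads, replicate 6 in hypoxia + ITE, and replicates 1 and 2 in normoxia + ITE.

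For ITE in normoxia the log2 fold change of MOAP1 was 0.33 ± 0.15 (1.26-fold, adjusted p = 0.9998), and for hypoxia with DMSO it was 0.48 ± 0.15 (1.39-fold, adjusted p = 0.153), both in edgeR and both higher at 6 of 6 replicate numbers. With both stimuli against neither it was 0.41 ± 0.15 (adjusted p = 0.128, edgeR), higher at 5 of 6 numbers. The values for adding the second stimulus were 0.07 (interval -0.23 to 0.37) for hypoxia with ITE and -0.07 (interval -0.38 to 0.23) for ITE in hypoxia. The interaction was -0.41 with an interval of -0.83 to 0.02 and an adjusted p-value of 0.915 in edgeR, so that a difference between the responses to ITE in hypoxia and normoxia did not pass. Without hypoxia + ITE replicate 6 these 3 values were 0.19, 0.04 and -0.29, so that the sign for ITE in hypoxia rests on that library. Without it, MOAP1 passed for hypoxia with DMSO (0.48, adjusted p = 0.0108, with 2.57% of all genes called) and for both stimuli (0.52, adjusted p = 0.00668, 2.59%), in edgeR. Its level in hypoxia + ITE was then 34.3 ± 2.25 CPM (SD, 5 libraries). For hypoxia with DMSO it was called under 6 of 35 alternatives, with values between 0.43 and 0.60 and adjusted p-values between 0.000221 and 0.333. Among these were DESeq2 (0.49, adjusted p = 0.0320), edgeR on the 12 libraries compared (0.48, adjusted p = 0.0343, 2.03% of all genes called) and sample quality weights in limma (0.54, adjusted p = 0.000221, 7.16%). For both stimuli it was called under 5 of 35, among them sample quality weights (0.58, 6.14% of all genes called) and offsets for GC content and length (0.52, 6.74%). For ITE in normoxia it was called under 2 of 35, with values between 0.28 and 0.40 and adjusted p-values between 0.0102 and 1, one of them the quality weights, with 0.954% of all genes called. The other had replicate number as a term and only the compared groups, with 2.22% of all genes called.

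The neighbouring TMEM251 gave 0.39 ± 0.17 for ITE in normoxia (unadjusted p = 0.0249 and adjusted p = 0.9998, edgeR), close to the value of MOAP1, and 0.22 ± 0.17 for hypoxia with DMSO. The other neighbour, ITPK1, at 65878 bases, gave 0.07 and 0.01 in the same comparisons. The part of shared transcription or of reads assigned across the pair in the MOAP1 values was not tested.

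**Figure D3:**
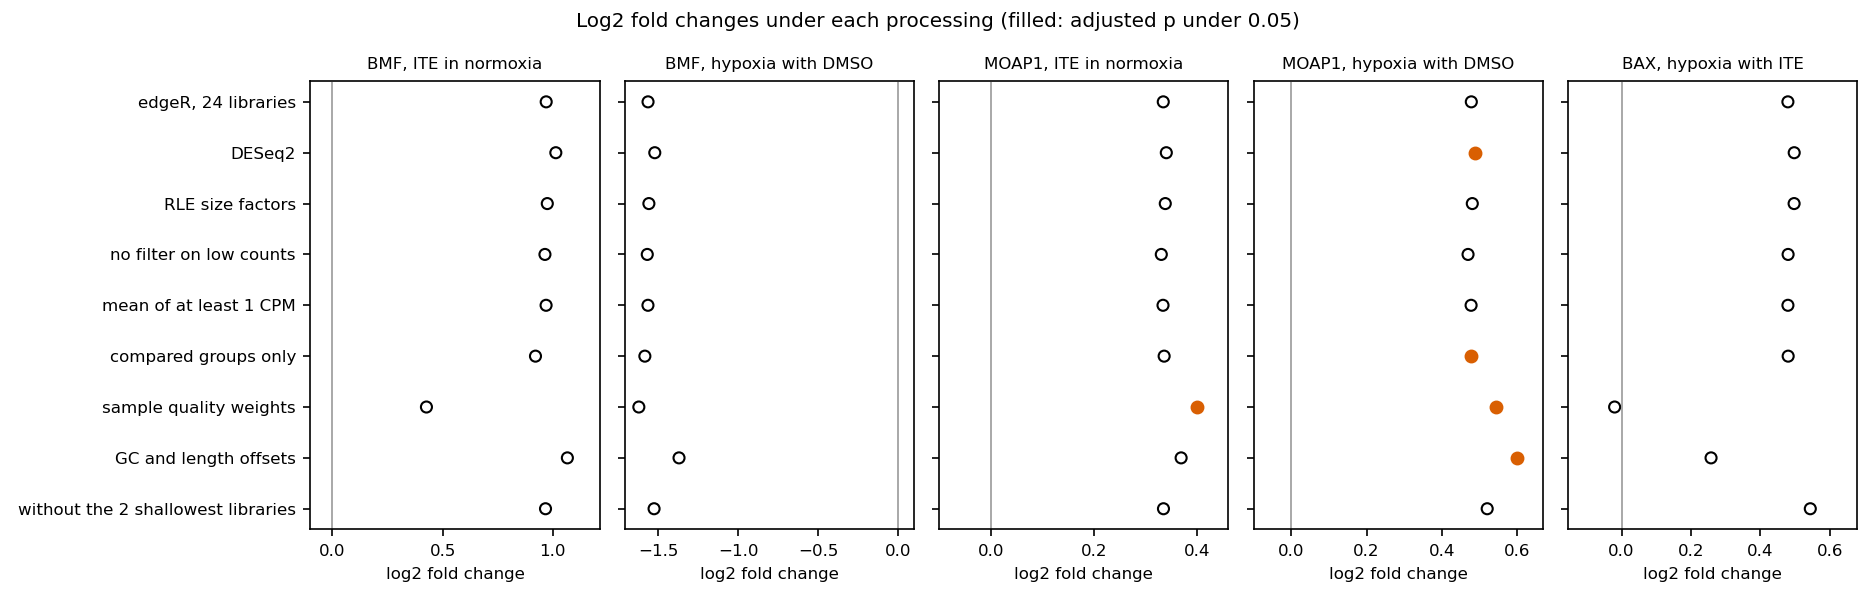
Log2 fold changes (horizontal axis) of BMF, MOAP1 and BAX in the comparisons named above each panel, under the ways of processing the counts named on the vertical axis, leaving aside fits with replicate number as a term or with 1 library left out; filled points passed an adjusted p-value of 0.05 and open points did not. MOAP1 for hypoxia with DMSO lies between 0.47 and 0.60 and is filled in 4 of the rows, while BAX for hypoxia with ITE falls to -0.02 with sample quality weights.

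Of the pro-survival genes, BCL2L1 and MCL1 gave narrow intervals around small values, and BCL2 gave wider ones. BCL2L1, which encodes BCL-XL (chr20:30252255-30311792, minus strand), had lowest, median and highest levels of 438, 515 and 527 CPM with DMSO and 381, 459.9 and 507 CPM with ITE under normoxia. In hypoxia they were 469, 523 and 655 CPM with DMSO and 472, 499.7 and 586 CPM with ITE. Its log2 fold change for ITE in normoxia was -0.12, with an interval of -0.32 to 0.08 and a lower level at 6 of 6 replicate numbers, and for hypoxia with DMSO it was 0.11, with an interval of -0.09 to 0.31. MCL1, a short-lived protein that holds BAK1 (chr1:150533371-150552214, minus strand), had medians of 236, 236, 229 and 216 CPM. Its value for ITE in normoxia was 0.00, with an interval of -0.26 to 0.25, and for hypoxia with DMSO -0.04, with an interval of -0.29 to 0.22. For hypoxia with ITE and for both stimuli it was -0.21, with intervals of -0.46 to 0.04 and -0.47 to 0.04. In hypoxia + ITE replicate 6 MCL1 was at 118 CPM, against 205 to 242 CPM in the other 5 libraries. The mean of MCL1 in hypoxia + ITE was 206 ± 45.7 CPM (SD, n = 6) and 224 ± 17.2 CPM without that library. In normoxia it was 239 ± 23.7 CPM with DMSO and 238 ± 13.4 CPM with ITE (SD, n = 6). The gene overlaps ADAMTSL4 on the opposite strand. BCL2 (chr18:60790579-60987361, minus strand) had medians of 41.2, 40.7, 46.8 and 50.9 CPM. Replicate 5 was the lowest library for BCL2 in each of the 4 groups, at 28.9, 31.2, 34.2 and 36.2 CPM, and replicate 1 was the highest in 3 of them. Its log2 fold changes lay between 0.09 and 0.27 in the 5 comparisons of groups, with an interval of -0.12 to 0.66 for both stimuli. With offsets for GC content and length and replicate number as a term, BCL2 was called for hypoxia with ITE (2.85% of all genes called) and both stimuli (5.5%).

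The 10 genes did not deviate as a unit. Across the 24 libraries, after subtracting each group's mean, log2 CPM of BAX and BAK1 had a Pearson correlation of 0.801, BMF and BCL2L11 0.779, and PMAIP1 and MCL1 0.706. BAX and BCL2L11 had -0.590 and BAX and MCL1 -0.569. Without hypoxia + ITE replicate 6 the 5 correlations were 0.593, 0.754, 0.494, -0.451 and 0.128 over 23 libraries, so that the last changed sign. These points share libraries, depth and base composition. In that library the deviation from the group mean on the log2 scale was 0.95 for BAX and 1.18 for BAK1, against -1.31 for BMF, -1.23 for PMAIP1, -0.82 for BCL2L11, -0.79 for MOAP1 and -0.76 for MCL1. Over all genes tested, the deviation of this library had a Spearman correlation of 0.666 with the GC content of the transcript, against -0.465 to 0.160 in the other 23. The transcripts of BAX and BAK1 are 58.9% and 58.8% GC, and those of PMAIP1, MCL1, BCL2L11 and MOAP1 36.7%, 45.1%, 46.6% and 49.8%. BMF, at 54.7%, and BBC3, at 69.7% with a deviation of -0.24, depart from that order, and the part of GC content in these values was not tested. With offsets for GC content and length, BAX for hypoxia with ITE was 0.26 and MOAP1 for hypoxia with DMSO 0.60 (adjusted p = 0.00377, edgeR), the latter with 2.62% of all genes called.

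**Figure D4:**
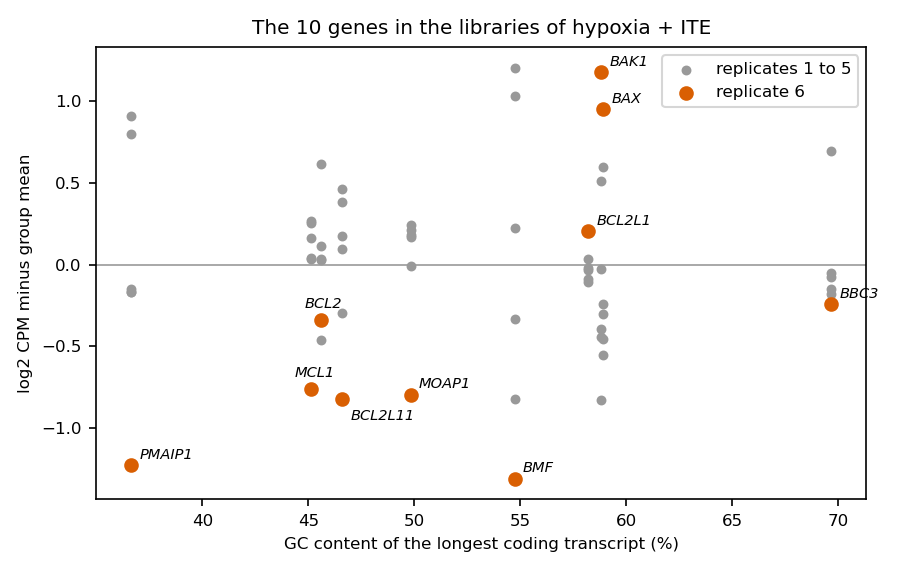
Deviation of each of the 10 genes from its group mean (vertical axis, log2 CPM) in the 6 libraries of hypoxia + ITE against the GC content of its longest coding transcript (horizontal axis, percent); orange points are replicate 6 and grey points replicates 1 to 5. Replicate 6 reaches from -1.31 for BMF to 1.18 for BAK1.

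Of 65 other genes of the apoptosis pathways, 54 passed the filter, and the only ones called were BNIP3 and BNIP3L, 2 of 54 in each hypoxia comparison and with both stimuli, against 1.3% of all genes for hypoxia with DMSO, 2.35% with ITE and 2.32% for both stimuli. Both encode BH3-containing proteins of the outer mitochondrial membrane that act chiefly as receptors for mitophagy and are classical HIF targets. BNIP3 rose from 81.5 ± 14.7 CPM in normoxia + DMSO to 477 ± 34.1 CPM in hypoxia + DMSO (SD, n = 6), a log2 fold change of 2.55 ± 0.14 (SE, adjusted p = 2.71e-13, edgeR), and BNIP3L rose from 65.0 ± 4.01 to 253 ± 34.9 CPM, 1.96 ± 0.13 (adjusted p = 8.60e-12, edgeR). With ITE present hypoxia gave 2.40 and 1.49, and both stimuli against neither gave 2.34 and 1.68. The response of BNIP3L to hypoxia differed with ITE by -0.48 (unadjusted p = 0.0107, adjusted p = 0.915, edgeR), which did not pass. For ITE in normoxia, ITE in hypoxia and the interaction, 0 of 54 were called in edgeR, with 1, 5 and 2 at an unadjusted p-value under 0.05, beside 1.46%, 9.56% and 3.19% of all genes. At that level 5 were higher and 1 lower for hypoxia with DMSO, 8 and 2 for hypoxia with ITE, and 11 and 1 for both stimuli, beside 9.47%, 20.1% and 19.3% of all genes.

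No other gene of the 8 lists passed the test in any comparison. For ITE in normoxia the 54 values ran from -0.54 for BCL2L15 to 0.30 for BIRC3, an inhibitor of apoptosis, with 27 above and 27 below 0. CFLAR, which blocks caspase-8 at death receptors, gave 0.28 ± 0.12 there (adjusted p = 0.9998, edgeR) and was named after its values were seen, since it was called there under 2 alternatives. For ITE in hypoxia the values ran from -0.45 for PNMA2 to 0.72 for BAD, a BH3-only gene. In hypoxia + ITE, BAD had a mean of 106 ± 111 CPM (SD, n = 6), a median of 61.0 and a highest library at 332 CPM. PNMA2 had a median of 43.3 CPM in that group and a lowest library at 16.9 CPM. For the interaction the values ran from -0.48 for BNIP3L to 0.89 for BIK, another BH3-only gene. BIK was near the floor, with a median of 4.5 counts and a lowest of 0 in hypoxia + DMSO. For hypoxia with DMSO, CASP10, named after its values were seen, gave -0.84 ± 0.29 (unadjusted p = 0.00696, adjusted p = 0.232, edgeR). Its counts per library ran from 0 to 189 in hypoxia + DMSO. In this comparison the 9 apoptosome and caspase genes had a median of -0.0001. Medians there were 0.24 for the 6 other BH3-only genes, BNIP3 and BNIP3L among them, 0.46 for the 2 PNMA relatives of MOAP1, -0.06 for 5 other multidomain relatives, 0.04 for 7 IAP genes and their antagonists, 0.03 for 10 death receptor genes, 0.09 for 8 binding partners and 0.02 for 7 upstream factors, beside -0.0033 over all genes tested and -0.05 for the 10 members. Of the 6 PNMA relatives of MOAP1, 2 passed the filter. PNMA2 gave 0.69 ± 0.20 for hypoxia with DMSO (unadjusted p = 0.00199, adjusted p = 0.112, edgeR), and was called by DESeq2 (0.70), a value also chosen after it was seen.

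**Figure D5:**
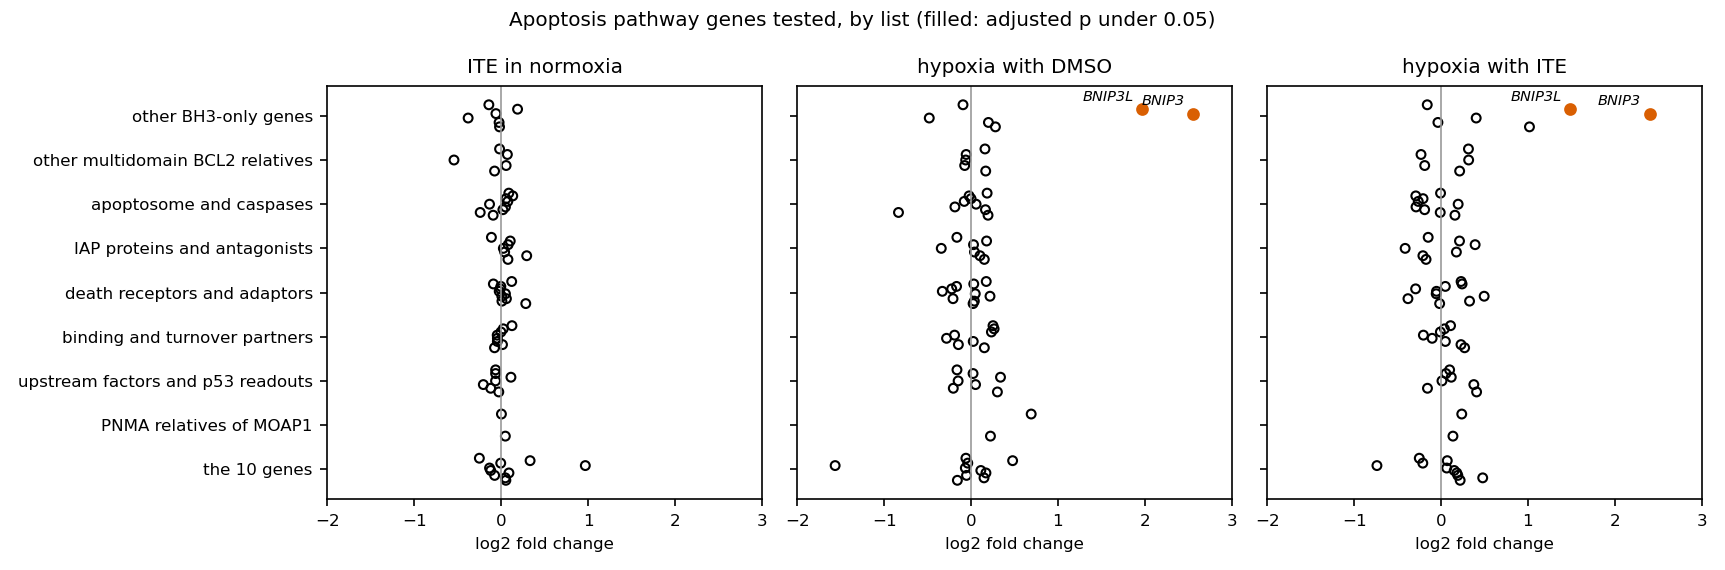
Log2 fold changes (horizontal axis) of the 54 pathway genes tested, in 8 lists, and of the 10 genes (vertical axis), in 3 of the comparisons; filled points passed an adjusted p-value of 0.05. BNIP3 and BNIP3L, at 2.55 and 1.96 for hypoxia with DMSO, are the filled points, and BMF is the lowest of the 10 at -1.56.

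Among genes with a mean of at least 1 CPM, those whose log2 CPM most resembled BMF over the 24 libraries were LOC100506714, GCNT3 and SUOX, with Pearson correlations of 0.871, 0.83 and 0.82. For MOAP1 they were NFIL3, CENPK and NAMPT, with 0.824, 0.793 and 0.792. These are descriptions over libraries that share depth and base composition.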

How the data were processed

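Poly(A) RNA-seq libraries were made from RCC4+VHL cells, 24 in 4 groups of 6. Per the labels and the study's methods, the authors trimmed adaptors with Trim Galore 0.3.3, aligned reads to GRCh37 with HISAT2, removed fragments that did not map uniquely with Picard 2.0.1 and counted reads per gene with HTSeq 0.5.4p3. The strand setting of the counting is not given in the sources used here. The values deposited by the authors are raw read counts per gene symbol, 1 library a file, with totals between 770094 and 93851342. Removal of non-unique fragments can lower counts of genes with near-identical copies.

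The counts were tested with edgeR 4.0.16 (R 4.3.3) by quasi-likelihood, after filterByExpr with a minimum count of 10 and TMM scaling, in 1 model over all 24 libraries with no covariate. P-values are two-sided and adjusted by Benjamini-Hochberg over the 11735 genes tested, with a threshold of 0.05. DESeq2 1.42.0, limma 3.58.1 with sample quality weights, other filters and scalings, a replicate block, offsets for GC content and length, and each library left out in turn were alternatives. Gene positions, lengths and GC content came from GENCODE v44lift37, and GC content and length were found for 97.5% of the genes tested. All 10 genes are named, and of the pathway genes those past the threshold or, where none passed, the ends of the range. NDRG1, CYP1B1 and the other treatment checks, the nearest neighbours of BMF and MOAP1 and the genes most like these in pattern are also named. The members and lists were chosen with earlier results of these data known.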

Additional observations from a re-analysis of the deposited data

Results flagged for a closer look

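Each of the 10 genes was examined in each group, 40 groups of 6 libraries in all, for a library far from the other 5 by Dixon's test at the 95% level, and 4 stood out where chance at that level gives 2. BBC3 was highest in hypoxia + ITE replicate 3 at 49.2 CPM, with the nearest library at 29.2 CPM. BAK1 was highest in normoxia + DMSO replicate 5 at 57.6 CPM, with the nearest at 46.9 CPM. MOAP1 was lowest in hypoxia + ITE replicate 6 at 17.6 CPM, with the nearest at 30.5 CPM, and MCL1 was lowest in the same library at 118 CPM, with the nearest at 205 CPM.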

How the results depend on the processing

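Each comparison was recomputed under 10 alternatives, with each of the 24 libraries left out in turn, and without the 2 shallowest libraries, the last chosen after seeing the data. For ITE in hypoxia and for the interaction 0 of 10 members were called by edgeR, DESeq2 or limma under all of these that were run. Of 2080 recomputed values of the members, 98 changed sign, none of them called, and 19 were called. With sample quality weights BAX reversed to -0.0199 for hypoxia with ITE and to -0.026 for ITE in hypoxia. The cause of these changes was not tested.

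Against 0 members called in each comparison, hypoxia with DMSO gave 1 (MOAP1) under DESeq2, the compared groups only, sample quality weights, and offsets for GC content and length, and 0 to 1 when a library was left out. Hypoxia with ITE gave 0 to 1 when a library was left out, and both stimuli gave 1 under DESeq2, quality weights and the offsets (MOAP1) and 0 to 1 when a library was left out. ITE in normoxia gave 1 (MOAP1) with quality weights. Pathway genes called numbered 1 for ITE in normoxia with quality weights, where 0.954% of all genes were called. For hypoxia with DMSO they numbered 6 with quality weights (7.16% of all genes called) and 4 with the offsets (2.62%), against 2 (1.3%), and 2 to 3 when a library was left out. For hypoxia with ITE they numbered 4 with quality weights (5.16%) and 4 without the 2 shallowest libraries (4.02%), against 2 (2.35%), and 2 to 5 when a library was left out. For both stimuli they numbered 4 with quality weights (6.14%) and 4 with the offsets (6.74%), against 2 (2.32%), and 2 to 5 when a library was left out.

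For ITE in normoxia, deviations of libraries with the same replicate number had a mean correlation of 0.237, against -0.05 with other numbers. They ran from -0.005 to 0.435, with 5 of 6 above 0.1, and 10 of 12 libraries were closest to their own number. In the other 4 comparisons of groups the means were 0.025 to 0.115, against -0.022 to 0.003 with other numbers, and 3 to 7 of 12 were closest to their own. Some likeness by number was thus present, clearest for ITE in normoxia. The labels do not say what a number shares, so the main model does not pair the libraries. With the replicate block in the model of all 24 libraries, 0 members and the same number of pathway genes were called in each comparison, and BMF stood at 1.04 for ITE in normoxia and -1.18 for hypoxia with DMSO. With the block in the compared groups only, ITE in normoxia gave 2 members, BMF (1.08, adjusted p = 0.0114, edgeR) and MOAP1 (0.33, adjusted p = 0.0231, edgeR), where 2.22% of all genes were called, and 2 pathway genes, BIRC3 and CFLAR. With the offsets and the block together, 1 member (MOAP1, 3.43% of all genes called) and 5 pathway genes were called for hypoxia with DMSO, 1 member (BCL2, 2.85%) for hypoxia with ITE, and 2 members (MOAP1 and BCL2, 5.5%) and 4 pathway genes for both stimuli. The depth of the 2 shallowest libraries limits BMF most, since 3 counts there correspond to 2.23 and 4.12 CPM.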
